A study of Mus musculus with 14 samples.

Results

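Imprinted genes are transcribed mainly from 1 parental copy, and 43 of them were followed here in sorted islet cells of the mouse. They were picked by gene symbol from the 52459 genes of the deposited count table, from a list of well-known mouse imprinted genes, and all 43 had a row. By textbook assignment, 23 are expressed from the paternal copy and 12 from the maternal copy. The other 8 were classed as having an imprint that depends on the tissue or on the transcript. The paternal and maternal classes need not hold in every tissue either, and were not checked in islet cells. They fall into 21 groups by position, 11 clusters of neighbouring members and 10 genes that stand alone in this list. RNA was sequenced from cells of dispersed pancreatic islets of C57BL/6J males aged 7 months. The cells had been sorted by flow cytometry on acidic beta-galactosidase activity, a lysosomal activity used as a marker of cellular senescence, into 7 libraries of positive and 7 of negative cells. The comparison asked how transcripts differ between islet cells with and without this marker of ageing. All animals were of the same inbred strain and untreated as far as the labels say, the labels name no gate on cell type, and libraries carry the numbers 1 to 7 in both groups. The labels do not say whether the numbers mark separate animals, so the tests measure the spread between these libraries.

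Imprinting rests on DNA methylation that is laid down in sperm or egg at control regions and kept after fertilisation. A control region often sets several genes of a cluster at once, commonly through a long noncoding RNA or an insulator, so that neighbours are expressed from opposite parental copies. Many imprinted genes act on growth: as a rule of thumb, paternally expressed genes such as Igf2 promote fetal growth and maternally expressed genes such as Igf2r and Grb10 restrain it. The strain is inbred and the counts are per gene, so the parental copy a read came from was not measured, and the words paternal and maternal below give the known imprint only.

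Promoter windows of RefSeq (GRCm38.p6, 250 bases before to 50 after a transcript start) were at hand for 35 of the 43 genes. The windows below belong to the paternally expressed genes with the largest rise and the largest fall, Mest and Nap1l5, and to Dlk1 and Meg3. The last are a paternally and a maternally expressed gene of the same cluster whose ratio differed between the groups. Capitals mark TGCCGC on either strand, the 6-base core bound by the imprint keeper ZFP57 when its CpG is methylated.
Mest, chr6:30737800-30738099, plus strand: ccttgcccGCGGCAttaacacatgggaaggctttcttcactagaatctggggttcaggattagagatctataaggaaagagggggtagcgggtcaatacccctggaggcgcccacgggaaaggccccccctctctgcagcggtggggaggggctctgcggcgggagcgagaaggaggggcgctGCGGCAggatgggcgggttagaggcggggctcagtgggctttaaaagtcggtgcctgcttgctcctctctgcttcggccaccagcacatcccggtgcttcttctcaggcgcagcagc
Nap1l5, chr6:58907077-58907376, minus strand: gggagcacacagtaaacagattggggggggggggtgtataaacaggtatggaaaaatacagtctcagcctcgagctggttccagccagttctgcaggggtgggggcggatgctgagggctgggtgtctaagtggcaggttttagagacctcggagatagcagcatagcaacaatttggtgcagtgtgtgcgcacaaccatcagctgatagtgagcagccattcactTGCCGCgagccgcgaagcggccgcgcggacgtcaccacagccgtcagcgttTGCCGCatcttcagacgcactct
Dlk1, chr12:109452573-109452872, plus strand: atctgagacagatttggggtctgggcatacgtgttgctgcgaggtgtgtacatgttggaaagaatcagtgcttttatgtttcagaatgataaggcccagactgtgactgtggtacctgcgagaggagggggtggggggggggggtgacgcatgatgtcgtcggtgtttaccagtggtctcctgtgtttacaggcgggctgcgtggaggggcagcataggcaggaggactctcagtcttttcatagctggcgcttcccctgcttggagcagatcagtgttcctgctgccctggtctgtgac
Meg3, chr12:109540746-109541045, plus strand: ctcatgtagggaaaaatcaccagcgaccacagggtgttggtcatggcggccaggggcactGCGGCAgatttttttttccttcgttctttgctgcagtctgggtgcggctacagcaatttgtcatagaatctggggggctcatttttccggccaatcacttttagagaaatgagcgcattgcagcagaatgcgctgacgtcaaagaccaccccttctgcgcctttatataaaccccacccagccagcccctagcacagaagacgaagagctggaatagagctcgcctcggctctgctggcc
The Mest and Nap1l5 windows shown each hold 2 matches, that of Meg3 holds 1 and that of Dlk1 has none. Over all members, 13 of 55 windows held a match (23.6%), against 11.6% of the 32851 windows of all genes. The 55 windows come from 35 genes and some overlap, so a site can count more than once. The difference was not tested. The median window held 13 CpG dinucleotides in members and 7 over all genes. RefSeq lists further windows for Mest, of which that at chr6:30733256-30733555 has no match and that at chr6:30737803-30738102 nearly coincides with the one shown, and for Meg3, at chr12:109545148-109545447 with no match. The Mest window shown belongs to a RefSeq start inside the annotated gene. These are descriptions of letters, and binding and methylation were not measured.

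Total counts ranged from 15585779 to 24577025 reads in positive and from 11060144 to 23045934 in negative libraries. Summed beta cell markers held 99720 to 130100 CPM (reads per 1000000 reads of the library, after TMM scaling) in positive and 103800 to 155100 CPM in negative libraries, so both groups were rich in beta cell RNA. Markers of other cells moved with the groups. In positive libraries, all 14 macrophage markers tested and all 15 endothelial markers tested rose, with summed levels of 86.8 to 745.7 against 18.5 to 26.7 CPM for macrophages and of 427.5 to 1422 against 8.30 to 79.9 CPM for endothelial cells (positive against negative). Of 12 pericyte and fibroblast markers tested 6 rose, of 3 delta cell markers tested 2 rose, Sst and Hhex, and of 15 acinar markers tested 7 fell (13 with the block). Of 14 beta cell markers 2 fell, Neurod1 and Trpm5 (8 with the block). Every marker of these lists had reads in both groups. The part of these cells in the changes below was not tested, and in bulk RNA fewer cells of a type and less RNA per cell cannot be told apart.

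Per kilobase of exons, Peg3 was the most abundant member, with a mean of 146 CPM per kilobase in positive and 176 in negative libraries. Slc38a4, an amino acid transporter, followed with 117 and 123, the noncoding RNA Meg3 with 90.1 and 111, and Gnas, the stimulatory G protein subunit that couples hormone receptors to cyclic AMP, with 80.6 and 87.7. Next came Ddc (58.7 and 79.7), Impact (45.6 and 51.1), Nap1l5 (24.4 and 40.5) and Rian (26.8 and 30.7). The ranges over libraries of Slc38a4 overlapped with those of Peg3 and of Meg3 in both groups, so the order of these neighbours is not fixed by the data, while in negative libraries Peg3 lay above Meg3 throughout. The length used joins all annotated exons of a gene, 13324 bases for Peg3, 18089 for Meg3 and 11186 for Gnas. A gene read mainly from a shorter transcript is ranked too low by this measure. The order therefore also depends on the annotation, and the transcripts in use were not measured. In all, 34 members averaged at least 1 CPM per kilobase over the 14 libraries.

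**Figure D1:**
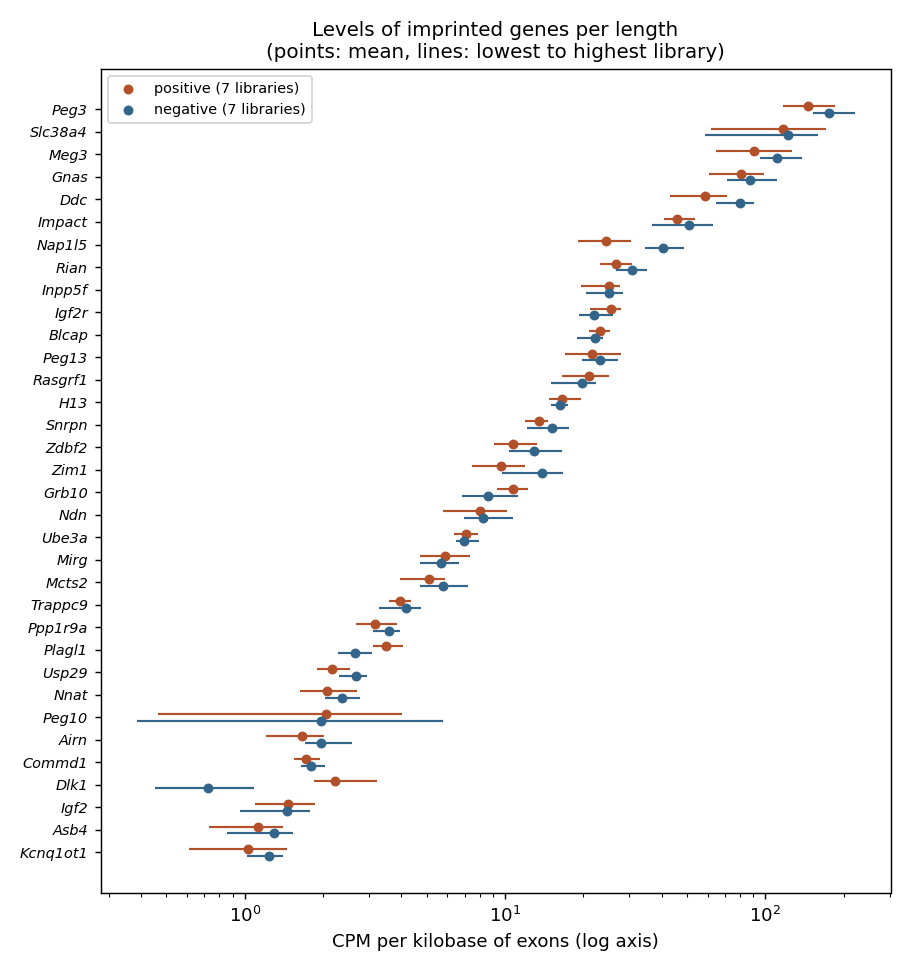
Level of the 34 imprinted genes with a mean of at least 1 CPM per kilobase of exons (log axis), with 1 row per gene. Points are group means and lines run from the lowest to the highest of 7 libraries. Peg3, Slc38a4 and Meg3 stand at the top, Dlk1, Nap1l5 and Plagl1 have ranges that lie apart, and Peg10 has the widest ranges.

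The other end of the list was close to silent. H19, the maternally expressed noncoding RNA beside Igf2, had 7 reads in 1 positive library, number 7, and 29 reads in 2 negative libraries, 24 of them in negative 3. Negative 3 also had the highest summed level of pericyte and fibroblast markers, 1477 CPM, against 16.9 to 76.3 CPM in the other negative libraries. Negative 7, with 5 H19 reads, had 49.3 CPM of these markers, and negative 6, without a read, had 76.3 CPM. Positive 7 had 178.1 CPM, and positive 3, without a read, had 270.1 CPM. The part of these cells in the H19 reads was not tested. A library with no read allows up to 3 reads, or 0.122 to 0.271 CPM at these depths. Phlda2, a brake on placental growth, had 6 and 3 reads in all positive and all negative libraries, Magel2 had 4 and 5, and Peg12 had 8 and 3. Slc22a18, a membrane transporter, had 54 and 48 reads. These 5 genes fell below the filter on low counts, and the 38 others were tested.

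Of the 38 genes tested, 5 rose in positive cells, 4 fell and 29 were not called by edgeR's quasi-likelihood test (adjusted p below 0.05 over 16350 genes). Those that rose were Mest, Kcnq1, Dlk1, Plagl1 and Grb10, and those that fell were Nap1l5, Zim1, Ddc and Usp29. In GENCODE M21 (GRCm38) Mest spans chr6:30723547-30748465 and Nap1l5 chr6:58905233-58907076. Kcnq1 lies at chr7:143106362-143427042, Zim1 at chr7:6671269-6696450 and Usp29 at chr7:6730578-6967219. Dlk1 lies at chr12:109452823-109463336, Plagl1 at chr10:13060504-13131694, and Grb10 and Ddc are neighbours at chr11:11930508-12038683 and chr11:11814101-11898144. The risers were 13.2% of the members tested, against 6.4% of all genes, and the fallers 10.5%, against 1.63% of all genes (8.03% of all genes were called in either direction). With the replicate number as a block, 6 members rose (15.8%; 11.8% of all genes) and 9 fell (23.7%; 7.77% of all genes, and 19.6% in either direction). The block added Igf2r to the risers and Meg3, Peg3, Ppp1r9a, Snrpn and Zdbf2 to the fallers. With the block and without the libraries numbered 6 and 7, 6 members rose (6.36% of all genes) and 5 fell (3.14% of all genes), all 5 among the 9, with Meg3, Peg3, Ppp1r9a and Snrpn lost. With the block and without the libraries numbered 1 and 2, 6 rose (8.14% of all genes) and 9 fell (5.05% of all genes). Of these 9, 6 were shared, Ppp1r9a, Snrpn and Zim1 were lost, and Impact, Kcnq1ot1 and Rian were gained. The median log2 fold change of the 38 was −0.07, against 0.00 over all genes. Without the libraries numbered 1 and 2 and without the block, 4 members rose, Mest, Dlk1, Kcnq1 and Plagl1 (10.5%, against 4.31% of all genes). In that fit 1 fell, Nap1l5 (2.63%, against 1.26% of all genes). Without the 4 libraries numbered 6 and 7, whose positive libraries had the most macrophage and endothelial RNA, and without the block, 3 members rose, Mest, Dlk1 and Kcnq1 (7.89%; 3.28% of all genes), and 2 fell, Nap1l5 and Zim1 (5.26%; 0.275% of all genes).

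Paternally and maternally expressed members moved in both directions. Of 21 paternally expressed genes tested, 3 rose (14.3%) and 2 fell (9.52%), with a median log2 fold change of −0.10. Of 9 maternally expressed genes tested, 2 rose (22.2%) and 1 fell (11.1%), with a median of −0.17. Of all genes, 6.4% rose and 1.63% fell. With the block the counts were 3 and 5 for the paternally expressed and 3 and 3 for the maternally expressed genes. The share of all genes was then 11.8% higher and 7.77% lower, so the paternally expressed risers, at 14.3%, were near that of all genes. Of the 8 genes with an imprint that depends on tissue or transcript, 1 fell, Ddc. The difference between these classes was not tested.

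**Figure D2:**
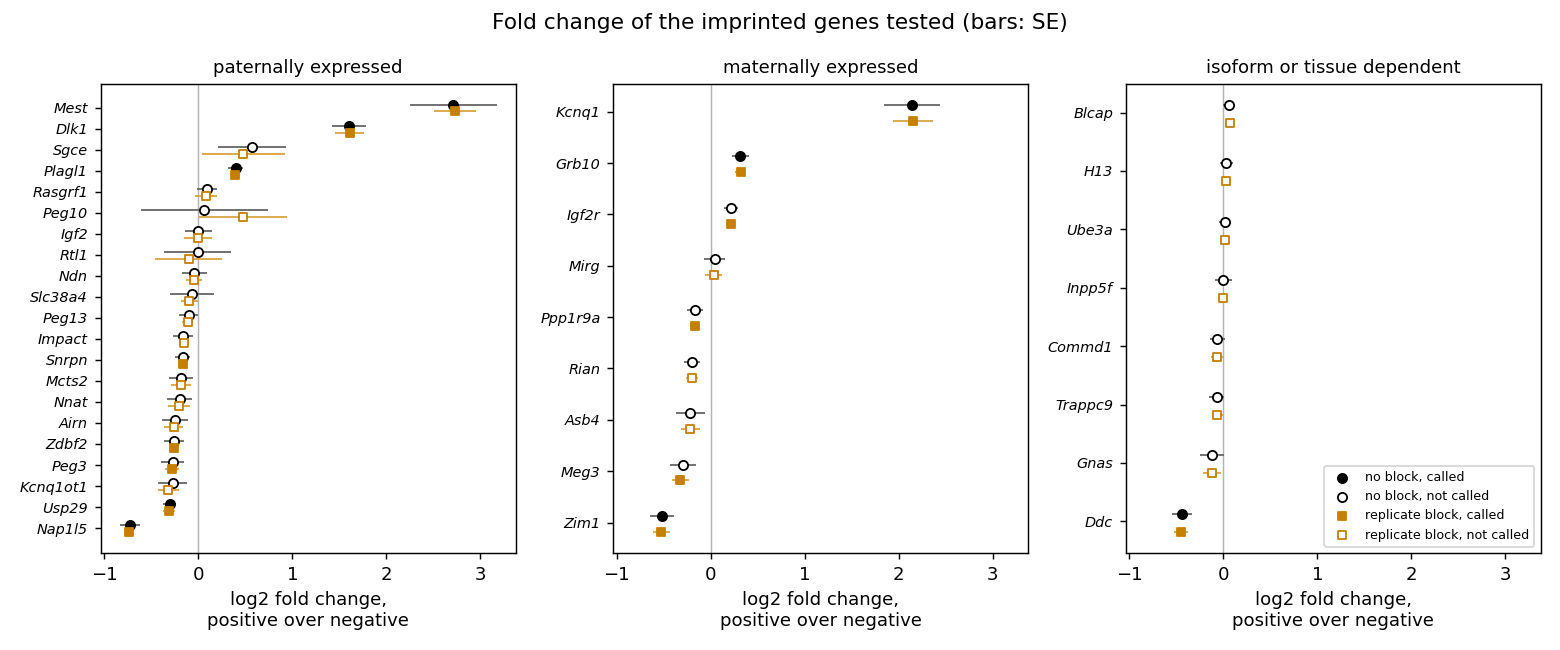
Log2 fold change, positive over negative, of the 38 imprinted genes tested, in panels by the known imprint. Black circles are the unblocked fit and orange squares that with replicate numbers as blocks, filled where called, with bars of 1 SE; risers and fallers stand in both the paternal and the maternal panel, and Mest, Kcnq1 and Dlk1 lie farthest from 0.

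Among genes that act on growth and growth factor signalling, Mest showed the largest rise. Mest, a hydrolase-like protein of the endoplasmic reticulum tied to growth and fat cell size, had 2.30, 7.02 and 11.3 CPM (lowest, median and highest) in positive libraries and 0.202, 0.997 and 1.80 CPM in negative libraries. Every positive library lay above every negative one, and the log2 fold change was 2.71 ± 0.46 (SE, adjusted p = 0.00131, edgeR). Within the positive group Mest was high in numbers 1, 2, 6 and 7, at 7.02 to 11.3 CPM, and lower in numbers 3, 4 and 5, at 2.30 to 3.56 CPM. Delta cell markers, in sum, had 1056 to 2199 CPM in the first set of libraries and 308.7 to 873.3 CPM in the second. Other lists split the same libraries. Endothelial markers had 648.1 to 1422 against 427.5 to 548.8 CPM, PP cell markers 2868 to 5017 against 869.2 to 2460 CPM. Ductal markers had 2311 to 3177 against 1877 to 2258 CPM. Macrophage, pericyte and fibroblast, acinar, alpha and beta cell sums overlapped between the sets. The part of any of these cells in the Mest values was not tested. The 3′ end of Mest overlaps Copg2 on the opposite strand over 23.1% of its exon length. The strand setting of the counting is not known, so reads of the 2 genes there cannot be told apart. On the log2 scale Copg2 differed by −0.18 ± 0.09 (SE; adjusted p = 0.255, and 0.0144 with the block).

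Dlk1, a transmembrane protein related to Notch ligands and known from precursor cells, had 10.4, 11.8 and 18.3 CPM (lowest, median and highest) in positive and 2.56, 4.08 and 6.13 CPM in negative libraries. The groups did not overlap, and the log2 fold change was 1.61 ± 0.18 (SE, adjusted p = 6.07e-05, edgeR). Plagl1, a zinc finger factor whose overexpression is known from transient neonatal diabetes in humans, had 24.3, 25.9 and 31.6 CPM in positive and 17.8, 20.6 and 24.2 CPM in negative libraries. The change was small, 0.40 ± 0.08, but again the groups did not overlap (adjusted p = 0.00587). Its call was lost without the libraries numbered 6 and 7 (0.41 ± 0.11, adjusted p = 0.0644).

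Igf2, the growth factor itself, was low and did not differ beyond the spread, with 8.36 ± 1.77 CPM in positive and 8.35 ± 1.53 CPM in negative libraries (SD, n = 7 each; log2 fold change 0.00 ± 0.15, SE). Its exons share 62.8% of their length with a second annotated gene, Gm49394, on the same strand, so how reads were split is uncertain. Igf2r, the receptor that clears Igf2 and carries enzymes to lysosomes, had 198, 248 and 260 CPM in positive and 178, 198 and 243 CPM in negative libraries (lowest, median and highest). In all 7 pairs the positive library had the higher value. Igf2r was not called without the block (0.22 ± 0.08, adjusted p = 0.107) and rose with it (0.22 ± 0.04, adjusted p = 0.00464). It was also called without the block once positive 2 was left out (adjusted p = 0.0455). Grb10, an adaptor that dampens insulin and IGF receptors, had 84.4, 96.0 and 111 CPM in positive and 62.0, 76.5 and 102 CPM in negative libraries. It was higher in all 7 pairs (0.31 ± 0.09, adjusted p = 0.0466; 0.00366 with the block). The groups overlapped through negative 3, at 102 CPM, and its call without the block was lost when any library but negative 3 or positive 5 was left out (adjusted p 0.0515 to 0.134).

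**Figure D3:**
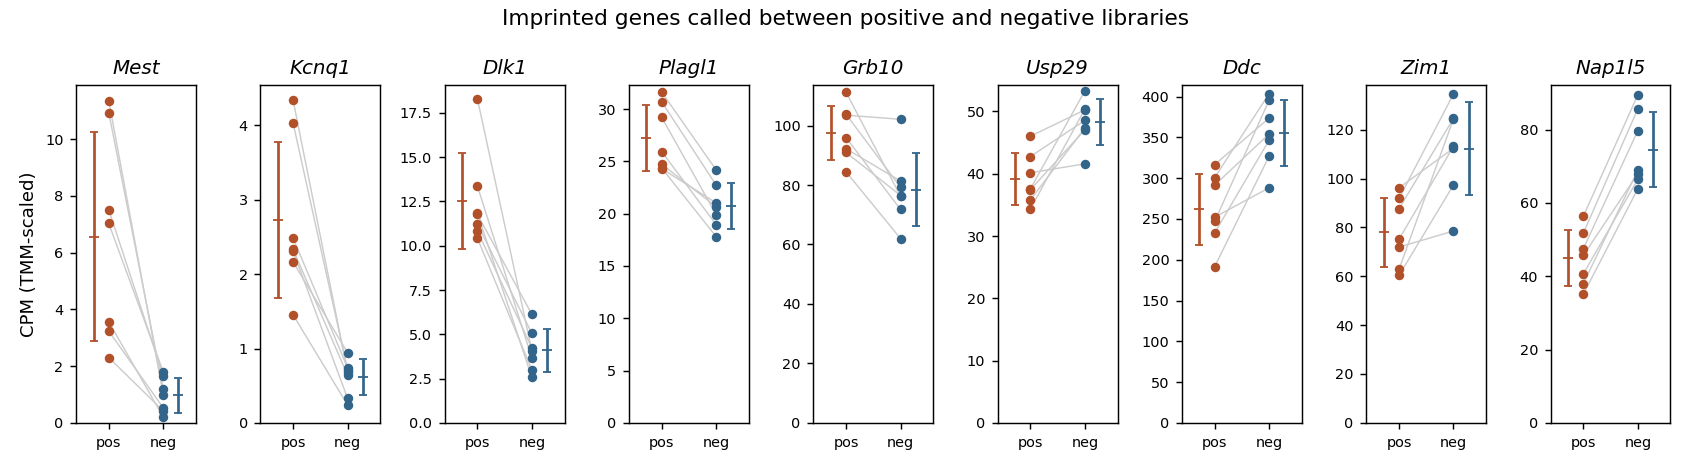
CPM of the 9 imprinted genes called without the block, positive libraries on the left and negative on the right of each panel, with the axis from 0. Grey lines join libraries of the same number and bars are the mean ± SD of 7; the groups do not overlap for Mest, Kcnq1, Dlk1, Plagl1 and Nap1l5.

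Groups that did not overlap were found for 5 of the 38 members, 4 higher and 1 lower in positive libraries. Over all genes tested, 3.5% did not overlap with higher and 0.355% with lower positive values, 3.86% in all. The lower one was Nap1l5, a member of the nucleosome assembly protein family. It had 35.1, 45.7 and 56.4 CPM in positive and 63.9, 69.0 and 89.5 CPM in negative libraries. The log2 fold change was −0.73 ± 0.11 (SE, adjusted p = 0.000372, edgeR), and −0.73 ± 0.04 with the block. It kept its call without the libraries numbered 6 and 7.

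In the Peg3 cluster all 3 members had lower values in positive cells in each of the 7 pairs. Peg3, a zinc finger protein tied to growth and maternal behaviour, had 1563, 1916 and 2464 CPM in positive and 2024, 2283 and 2934 CPM in negative libraries (lowest, median and highest). It was called with the block (−0.28 ± 0.07, adjusted p = 0.0219) and not without it (−0.27 ± 0.12, adjusted p = 0.194). Its blocked call was lost without the libraries numbered 6 and 7 (−0.19 ± 0.08, adjusted p = 0.149). Usp29, of the deubiquitinase family, starts 147 bases from Peg3 on the opposite strand. It had 34.3, 37.6 and 46.0 CPM in positive and 41.6, 48.6 and 53.3 CPM in negative libraries (−0.31 ± 0.07, adjusted p = 0.0131). Zim1, a maternally expressed zinc finger gene next to Peg3, had 60.4, 75.2 and 96.2 CPM in positive and 78.5, 113 and 135 CPM in negative libraries (−0.52 ± 0.13, adjusted p = 0.0163). The groups overlapped for all 3. Usp29 lost its call without the libraries numbered 6 and 7 (adjusted p = 0.0768) and without those numbered 1 and 2 (adjusted p = 0.102). Zim1 lost its call without those numbered 1 and 2, both without the block (adjusted p = 0.101) and with it (adjusted p = 0.0556). Usp29 shares 14.3% of its exon length with Zim3 on the opposite strand.

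None of the long noncoding RNAs tested among the 43 genes rose, with or without the block. Meg3, the noncoding RNA at the head of its cluster's maternal transcripts, had 1173, 1517 and 2297 CPM in positive and 1731, 1874 and 2503 CPM in negative libraries (lowest, median and highest). It was lower in all 7 pairs and fell with the block (−0.32 ± 0.09, adjusted p = 0.0231), not without it (−0.30 ± 0.14, adjusted p = 0.242). Without the libraries numbered 6 and 7 the blocked change was −0.18 ± 0.07 and not called (adjusted p = 0.139). The positive libraries 6 and 7 had the lowest values, 1173 and 1238 CPM, while positive 2 and 5, at 2297 and 2021 CPM, lay inside the negative range. Rian, the host of many small nucleolar RNAs, had 422, 486 and 559 CPM in positive and 486, 555 and 639 CPM in negative libraries (lowest, median and highest) and was not called with the block (adjusted p = 0.0553), though it was with the block once the libraries numbered 1 and 2 were left out (−0.22 ± 0.06, adjusted p = 0.0407). Mirg, a host of microRNAs downstream of Rian, had 42.7 ± 7.55 and 41.6 ± 5.07 CPM in positive and negative libraries. Kcnq1ot1, the antisense silencer of its cluster, had 95.7 ± 27.3 and 116 ± 12.3 CPM, Airn, the antisense silencer of Igf2r, 5.97 ± 1.21 and 7.09 ± 1.09 CPM, and Peg13 102 ± 17.4 and 109 ± 11.7 CPM (SD, n = 7 each, positive and negative), and none of these 3 was called over the 14 libraries with or without the block. Kcnq1ot1 was called lower with the block once the libraries numbered 1 and 2 were left out (−0.46 ± 0.11, adjusted p = 0.0453).

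Among channels, enzymes and transporters, Kcnq1, a voltage-gated potassium channel whose human locus carries type 2 diabetes risk variants, rose, at a low level. It had 1.45, 2.33 and 4.34 CPM in positive and 0.240, 0.687 and 0.944 CPM in negative libraries, from 359 and 74 reads in all. The groups did not overlap (log2 fold change 2.14 ± 0.30, SE, adjusted p = 0.000216, edgeR). Positive 6 and 7 were highest, at 4.34 and 4.03 CPM. These libraries also had the most macrophage RNA, at summed marker levels of 745.7 and 517.6 CPM. They had the most endothelial RNA too, at 1422 and 1361 CPM. The part of these cells in the Kcnq1 values was not tested. Without the libraries numbered 6 and 7 Kcnq1 still rose. Ddc, the decarboxylase that makes dopamine and serotonin, had 192, 252 and 317 CPM in positive and 288, 354 and 404 CPM in negative libraries. It was lower in all 7 pairs (−0.44 ± 0.11, adjusted p = 0.0144), with ranges that overlapped, and its call was lost without the libraries numbered 6 and 7 (adjusted p = 0.112) or 1 and 2 (adjusted p = 0.0870). Slc38a4 had 262, 479 and 726 CPM in positive and 250, 537 and 676 CPM in negative libraries (lowest, median and highest), and Gnas had 682, 899 and 1105 CPM in positive and 794, 927 and 1235 CPM in negative libraries (lowest, median and highest). The ranges overlapped and neither was called (−0.07 ± 0.23 for Slc38a4 and −0.12 ± 0.13 for Gnas).

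Of the remaining members, Snrpn, Zdbf2 and Ppp1r9a fell with the block. Snrpn, a splicing protein, had 25.7, 30.0 and 31.5 CPM in positive and 26.2, 32.4 and 38.1 CPM in negative libraries (lowest, median and highest). It was lower in all 7 pairs and called with the block (−0.16 ± 0.05, adjusted p = 0.0293), and also without the block once negative 3 was left out (adjusted p = 0.0405). The blocked call was lost without the libraries numbered 6 and 7 (adjusted p = 0.144) or 1 and 2 (adjusted p = 0.111). Snrpn shares 27.3% of its exon length with a second annotated gene on the same strand. Zdbf2, a zinc finger gene, had 115, 134 and 167 CPM in positive and 131, 156 and 209 CPM in negative libraries (lowest, median and highest). It was also called with the block (−0.26 ± 0.06, adjusted p = 0.00894), lower in all 7 pairs. Ppp1r9a, an actin-binding scaffold of synapses, had 39.0, 47.0 and 55.9 CPM in positive and 45.2, 53.1 and 57.5 CPM in negative libraries (lowest, median and highest). It was lower in 6 of 7 pairs (−0.17 ± 0.05, adjusted p = 0.0461 with the block), and its call was lost without the libraries numbered 6 and 7 (adjusted p = 0.0931) or 1 and 2 (adjusted p = 0.180). Ube3a, the ubiquitin ligase of Angelman syndrome, had 146 ± 9.97 CPM in positive and 144 ± 10.7 CPM in negative libraries (SD; log2 fold change 0.02 ± 0.06, SE), and Inpp5f, an inositol phosphatase, had 0.00 ± 0.09. Impact, a regulator of the amino acid stress response, had 209, 226 and 275 CPM in positive and 188, 254 and 322 CPM in negative libraries (lowest, median and highest) and was not called (−0.16 ± 0.11; −0.15 ± 0.05 with the block, adjusted p = 0.0689). It was called lower with the block once the libraries numbered 1 and 2 were left out (−0.20 ± 0.04, adjusted p = 0.0137). The growth suppressor Ndn (−0.04), Rasgrf1 (0.09), the retrogene Mcts2 (−0.18) and its host gene H13 (0.03), Nnat (−0.20) and its host gene Blcap (0.06), Commd1 (−0.06), Trappc9 (−0.07), Asb4 (−0.22) and Rtl1 (−0.01) were not called with or without the block.

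Neighbours of opposite or different imprint were then compared directly, as the ratio of their transcripts in each library, for 14 pairs of genes (exact permutation test over the 14 libraries, two-sided, adjusted over the 14 pairs). The ratio of Dlk1 to Meg3 was higher in positive than in negative libraries by 1.94 on the log2 scale, with group means of −7.00 ± 0.33 and −8.94 ± 0.51 (SD; exact p = 0.000583, adjusted p = 0.00408). It was higher in all 7 pairs. Most of this shift was the rise of Dlk1 (log2 fold change 1.61), with −0.30 for Meg3, which was not called without the block. The ratio of Kcnq1ot1 to Kcnq1 was lower by 2.30, at 5.11 ± 0.85 in positive and 7.40 ± 0.61 in negative libraries (exact p = 0.000583, adjusted p = 0.00408), and lower in all 7 pairs. Most of this shift was the rise of Kcnq1 (log2 fold change 2.14), with −0.27 for Kcnq1ot1. Kcnq1ot1 lies inside Kcnq1 on the other strand and shares 121 exon bases with it. The ratio of Grb10 to Ddc was higher by 0.77, at −1.41 ± 0.38 and −2.19 ± 0.37 (exact p = 0.00408, adjusted p = 0.0190), in all 7 pairs.

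A sign-flip test within pairs added 2 ratios. The ratio of Airn to Igf2r was −5.31 ± 0.41 in positive and −4.84 ± 0.30 in negative libraries, and that of Snrpn to Ube3a −2.32 ± 0.15 and −2.13 ± 0.23 (SD). Both were lower in all 7 pairs, with an exact p of 0.0156, the smallest that 7 pairs allow, and an adjusted p of 0.0437. Without pairing their adjusted p by the exact permutation test was 0.118 and 0.163. All 5 ratios called by the sign-flip test had this smallest p, those of Dlk1 to Meg3, Kcnq1ot1 to Kcnq1 and Grb10 to Ddc included. The adjusted p of each depends on how many ratios share it, and with fewer none would have passed. The ratio of Peg3 to Zim1 differed by 0.24 (adjusted p = 0.163, exact permutation test), and that of Peg13 to Trappc9 by −0.05 (adjusted p = 0.771, exact permutation test). Without the libraries numbered 6 and 7 no ratio was called, since 5 against 5 libraries allow an exact p of 0.00794 at best, which adjusts to 0.0556 where 2 ratios reach it. A p above the threshold does not show that such neighbours move alike.

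**Figure D4:**
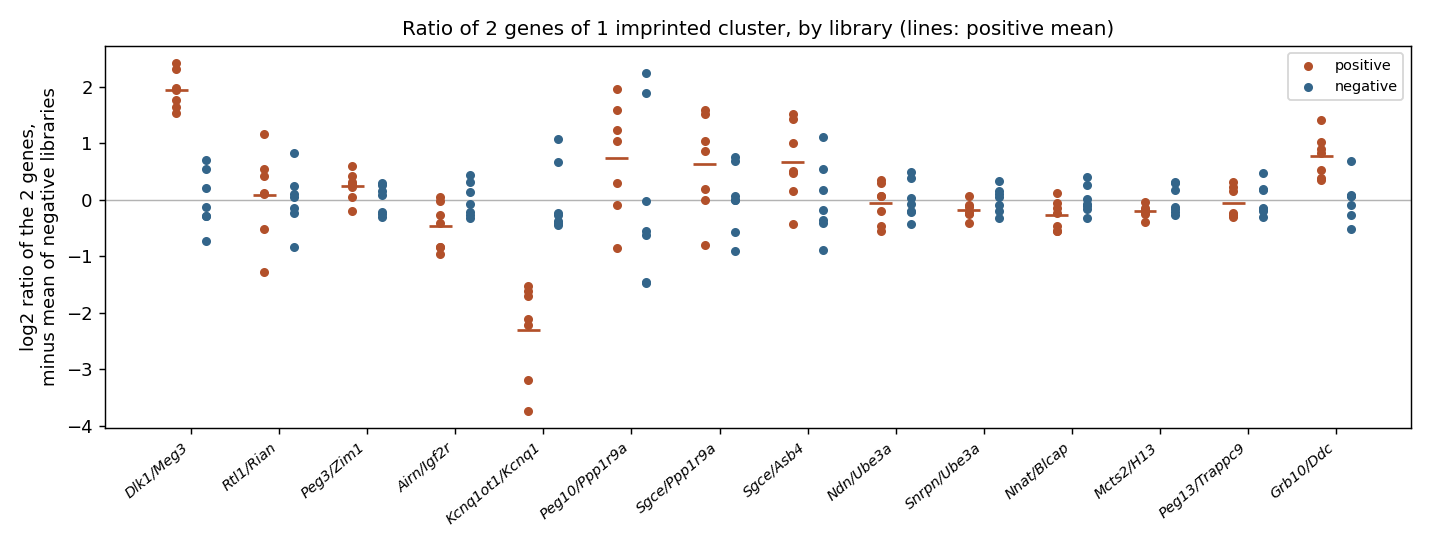
Log2 ratio of 2 transcripts of the same imprinted cluster in each of the 14 libraries, set to 0 at the mean of the negative libraries, for the 14 pairs tested. Positive libraries are drawn left of negative ones and short lines mark the positive mean; for Dlk1/Meg3 and Kcnq1ot1/Kcnq1 the groups lie apart, while for Grb10/Ddc they overlap.

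Within a group, only the correlation of Meg3 and Mirg in positive libraries passed the threshold across the 7 libraries, by Pearson r. By Spearman rho no pair of neighbours passed it. Among 56 correlations of log2 levels (28 gene pairs in each group), Meg3 and Mirg had the highest, with Pearson r = 0.987 in positive libraries (exact permutation p = 0.000595, adjusted p = 0.0333; Spearman rho = 0.964, permutation p = 0.00278, adjusted p = 0.126). Without the 2 libraries farthest from the median of Meg3, r was 0.960. In negative libraries r was 0.814 (permutation p = 0.0210, adjusted p = 0.196), rho was 0.929 (permutation p = 0.00675, adjusted p = 0.126) and r without the farthest 2 libraries was 0.783. The correlations of Grb10 and Ddc were negative and did not pass the threshold after adjustment. Their r was −0.904 in positive and −0.900 in negative libraries (permutation p = 0.00774 and 0.00556, adjusted p = 0.142 each). Their rho was −0.929 and −0.750 (permutation p = 0.00675 and 0.0663, adjusted p = 0.126 and 0.412), and r without the farthest 2 libraries was −0.864 and −0.579. The median r within clusters was 0.387 in positive and −0.04 in negative libraries, against 0.110 and 0.0910 for the 675 pairs of members from different clusters. The libraries of a group share the mix of cells that each sort gave, which varied between them.

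Of the members tested, Peg10 had the largest SD relative to its mean in both groups, and its neighbour Sgce also varied between libraries. Peg10, a retrotransposon-derived gene of the placenta, and Sgce, a sarcoglycan of myoclonus dystonia, are both paternally expressed and start 99 bases apart on opposite strands. Peg10 had 38.4 and 30.9 CPM in negative 1 and 2 and 2.56 to 7.66 CPM in the other 5 negative libraries, and in positive libraries it had 3.11 CPM in number 3 and 26.8 CPM in number 2. The log2 fold change of Peg10 was 0.07 ± 0.68 (SE, adjusted p = 0.971). It was 1.23 ± 0.49 without the libraries numbered 1 and 2 (adjusted p = 0.191; 1.12 with the block, adjusted p = 0.143) and −0.34 ± 0.88 without those numbered 6 and 7 (adjusted p = 0.921), and was called in none of these fits. That of Sgce was 0.57 ± 0.36 (adjusted p = 0.390). The correlation of Peg10 with Sgce was r = 0.879 in positive libraries (permutation p = 0.0127, adjusted p = 0.142; rho = 0.750, permutation p = 0.0663, adjusted p = 0.412) and 0.670 in negative libraries (permutation p = 0.0968, adjusted p = 0.464; rho = 0.786, permutation p = 0.0480, adjusted p = 0.412). Without the farthest 2 libraries r was 0.484 and 0.642, so the relation in positive libraries rests partly on them. In positive libraries, number 3 had the least and number 7 the most summed alpha, PP and delta cell markers. These were 3626 and 27650 CPM for alpha, 869.2 and 5017 CPM for PP and 308.7 and 2199 CPM for delta cells. Peg10 had 3.11 and 21.0 CPM there, and was highest in positive 2, with alpha markers at 19530 CPM. Positive 1 had more Peg10 than positive 5 (16.4 against 8.53 CPM), with less alpha (5948 against 11920 CPM) and more PP markers (2868 against 2460 CPM). The part of these cells in the Peg10 values was not tested. In negative libraries alpha markers were high in numbers 1, 2 and 3 (25790 to 28430 CPM), and Peg10 was high in 1 and 2 only, at 4.27 CPM in number 3. Slc38a4 was low in both libraries numbered 1, with 262 CPM in positive 1 and 250 CPM in negative 1, and highest in both numbered 3, with 726 and 676 CPM.

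**Figure D5:**
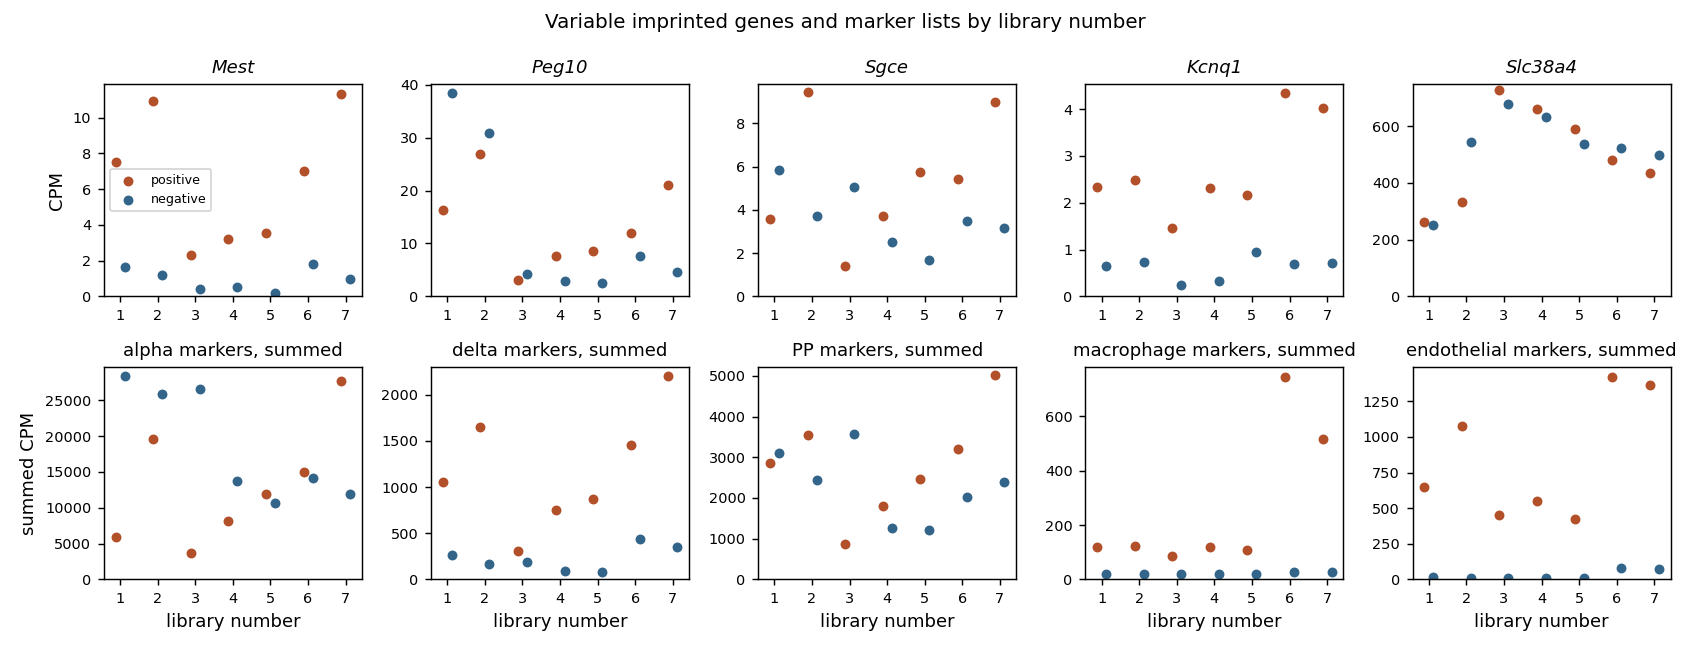
CPM of 5 imprinted genes that varied between libraries (upper row) and summed CPM of 5 lists of cell markers (lower row) against the library number, a name without order. Positive libraries are red-brown and drawn left, negative are blue; Peg10 is highest in negative 1 and 2, Slc38a4 is low in number 1 of both groups, and Kcnq1, macrophage and endothelial values are highest in positive 6 and 7.

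Further imprinted genes outside the 43 were read from a second list of 39. Of 23 tested, 3 rose (6.4% of all genes), 0 fell (1.63% of all genes) and 20 were not called, with a median log2 fold change of 0.05. With the block 5 rose (21.7%, against 11.8%) and 2 fell (8.70%, near the 7.77% of all genes). Ampd3, an AMP deaminase of blood cells, had 3.90 ± 2.32 CPM in positive and 0.470 ± 0.370 CPM in negative libraries (SD; log2 fold change 2.95 ± 0.53, SE, adjusted p = 0.00181). Nespas, the paternally expressed antisense RNA of the Gnas locus, had 1.63 ± 0.972 and 0.414 ± 0.260 CPM (1.90 ± 0.46, adjusted p = 0.0167), and it shares 988 exon bases with Gnas on the other strand. Cdkn1c, the maternally expressed cell cycle inhibitor p57, had 1.88 ± 0.320 and 1.15 ± 0.342 CPM (0.71 ± 0.21, adjusted p = 0.0488). Without the libraries numbered 6 and 7, only Ampd3 rose (4.35%, against 3.28% of all genes). Without those numbered 1 and 2, none rose (4.31% of all genes) and Osbpl5 fell (4.35%, against 1.26% of all genes). The block added Tfpi2 (1.96 ± 0.52, adjusted p = 0.0354) and Atp10a (0.88 ± 0.24, adjusted p = 0.0255) to the risers. The 2 that fell with it were Osbpl5 (−0.46 ± 0.05, adjusted p = 0.000106) and Copg2 (−0.17 ± 0.04, adjusted p = 0.0144). With the block and without libraries 6 and 7, only Nespas and Ampd3 rose (8.70%, against 6.36% of all genes). Osbpl5 and Copg2 still fell (8.70%, against 3.14%). With the block and without libraries 1 and 2, again only Nespas and Ampd3 rose (8.70%, near the 8.14% of all genes). Osbpl5 and Zrsr1 then fell (8.70%, against 5.05%). The calls of Tfpi2, Atp10a and Cdkn1c were lost in both fits.

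Genes that set or keep imprints were called by neither edgeR without the block nor DESeq2, in 0 of 13 tested of 17 listed (1 had an unadjusted p below 0.05 in each). With the block 2 rose, Dnmt1 and Trim28 (15.4%, near the 11.8% of all genes). Dnmt1, the maintenance methyltransferase, had 62.8 ± 6.08 CPM in positive and 57.0 ± 6.88 CPM in negative libraries (SD). Its log2 fold change was 0.14 ± 0.04 (SE, adjusted p = 0.0173 with the block). Trim28, the corepressor recruited by ZFP57, had 162 ± 21.5 and 144 ± 22.2 CPM (0.17 ± 0.04, adjusted p = 0.0136). Both were higher in all 7 pairs, and both were named after their values were seen. With the block and without the libraries numbered 6 and 7 neither was called. Tet3 then rose and Tet1 fell (7.69% each, against 6.36% and 3.14% of all genes). With the block and without the libraries numbered 1 and 2 only Trim28 rose (7.69%, near the 8.14% of all genes). Zfp57 itself fell below the filter on low counts.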

How the data were processed

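Per the labels' protocols, RNA was extracted from sorted islet cells with the PicoPure kit, polyadenylated RNA was selected and directional libraries were made. The authors deposited whole-number read counts per gene. The submitters' processing notes name Subread, featureCounts and GRCm38. Not given in the sources used here are their roles and versions, the annotation, the strand setting and how multi-mapped reads were treated. GENCODE M21 (GRCm38) gave coordinates and exon lengths. Counts were tested with edgeR 4.0.16 (R 4.3.3): filterByExpr, TMM factors, robust quasi-likelihood F-test with group as the only term, Benjamini-Hochberg adjustment over 16350 genes, SE from the F statistic. Members with too few reads were not tested. Folds are positive over negative, and CPM use TMM-scaled library sizes. Ratios and correlations used log2 CPM with a prior count of 2. Deviations from the group means of libraries of the same number correlated with 0.203 to 0.541 in all 7 pairs (median −0.125 for different numbers), so the numbers were taken to pair the libraries, from the titles and these correlations. Alternatives were the replicate block, DESeq2 1.42.0, RLE factors, no low-count filter and left-out libraries. The fit was tested on simulated data. The text names every member, with the range over libraries for members called with or without the block and the 8 of highest level per length, and, of the 2 further lists, genes called without the block. Those called over the 14 libraries only with the block (Dnmt1, Trim28, Tfpi2, Atp10a, Osbpl5 and Copg2) are named in addition, chosen after their values were seen. Tet1, Tet3 and Zrsr1, called with the block once libraries were left out, were chosen in the same way. Members, lists and comparisons were chosen with earlier results of these data known, and the correlations after the counts were seen. Floors cover counting error only, while SE and SD include the spread between libraries.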

Additional observations from a re-analysis of the deposited data

Results flagged for a closer look

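Among 76 groups of 7 libraries (38 genes in 2 groups), 4 held a library far from the others by Dixon's criterion, and chance gives about 1 in 20. Dlk1 was highest in positive 2, at 18.29 CPM, with the next positive library at 13.37 CPM. Ube3a was highest in negative 4, at 164.5 CPM, with the next at 146.7 CPM. Slc38a4 was lowest in negative 1, at 250.2 CPM, with the next at 496.4 CPM, and positive 1 was the lowest positive library, at 262.5 CPM. Rasgrf1 was lowest in negative 3, at 166.4 CPM, with the next at 212.9 CPM.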

How the results depend on the processing

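Leaving out libraries 1 and 2, and combining the block with fewer libraries, were chosen after seeing the data. Against 1313 genes called without the block, 3200 were called with the replicate block, 2078 by DESeq2, 581 without libraries 6 and 7 and 2129 with the block without libraries 1 and 2. Leaving out any 1 library gave 965 to 1883. Members called higher fell to 3 without libraries 6 and 7 (4 to 5 over single left-out libraries). Members called lower numbered 9 with the block, 9 with the block without libraries 1 and 2 (6 of them shared) and 5 with the block without libraries 6 and 7, against 2 without libraries 6 and 7 and 1 without libraries 1 and 2 (4 to 5 over single left-out libraries). Paternally expressed members called lower numbered 5 with the block, 6 with the block without libraries 1 and 2, and 1 without libraries 6 and 7 or 1 and 2 (2 to 3). Maternally expressed members called higher fell to 1 with RLE factors, with no low-count filter, and without libraries 6 and 7 or 1 and 2 (1 to 2), with Grb10 lost each time. Those called lower numbered 3 with the block, 2 with the block without libraries 1 and 2 and 0 without libraries 1 and 2. Gene pairs past the threshold numbered 5 with the replicate block and 0 without libraries 6 and 7, where the design limits the test, and 3 when any single library was left out. The cause of the other shifts was not tested.

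Values that changed sign were all uncalled. Without libraries 6 and 7, Rtl1 had a log2 fold change of 0.139 (0.109 with the block) and Peg10 −0.342, and Trappc9 had 0.000 with the block. Without libraries 1 and 2, Rtl1 had 0.039, Mirg −0.054 (−0.064 with the block), Ndn 0.021 (0.002), Ube3a −0.002 (−0.002), H13 −0.029 (−0.030) and Slc38a4 0.009. Igf2 had −0.004 with the block, −0.002 with RLE factors, −0.016 with no filter and −0.001 by DESeq2, Inpp5f had −0.005, −0.018 and −0.003 with RLE factors, no filter and DESeq2, and Ube3a −0.002 with no filter. Over single left-out libraries the range was −0.264 to 0.182 for Rtl1, −0.034 to 0.074 for Mirg, −0.093 to 0.049 for Igf2, −0.214 to 0.645 for Peg10, −0.123 to 0.024 for Ndn, −0.014 to 0.035 for Ube3a, −0.025 to 0.061 for H13, −0.203 to 0.027 for Slc38a4 and −0.056 to 0.040 for Inpp5f. Genes of few reads, such as Rtl1 with 85 and 76 reads in all positive and all negative libraries, are limited by depth.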
